A study of Homo sapiens with 6 samples.

Results

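Oxidative phosphorylation (OXPHOS) is carried out by complexes I to V of the inner mitochondrial membrane, and most of their subunits and assembly factors are encoded in the nucleus. The nuclear-encoded OXPHOS genes were taken from the deposited count table by symbol (genes beginning with NDUF, SDHAF, UQCR, ATP5 or COX followed by a digit, SDHA to SDHD, CYC1 and CYCS), which gave 104 of 12499 genes. By prefix, 47 belonged to complex I, 8 to complex II, 10 to complex III, 21 to complex IV and 17 to complex V, and CYCS encodes cytochrome c. All 104 passed the filter on low counts, as did 12462 of the 12499 genes. Only 37 failed it, so genes of low count may have been left out before the table was deposited. Shares of all genes given below are shares of the genes in this table.

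RNA-seq of HaCaT cells, an immortalized human keratinocyte line, was performed after infection with a lentivirus carrying the ATF7 coding sequence (LV-ATF7) or a negative control lentivirus (LV-NC). Infection lasted 48 h, and both groups were then kept in high glucose (HG) for a further 24 h, so no normal-glucose library was part of the comparison. Each group held 3 libraries of poly(A)-selected RNA with between 16686472 and 20562768 counts. No source says whether the replicates were separate cultures, and p-values therefore measure the spread between these libraries, which may be technical.

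Complex I (NADH dehydrogenase) and complex II (succinate dehydrogenase) pass electrons to ubiquinone, complex III passes them on to cytochrome c, and complex IV reduces oxygen. The proton gradient built along the way drives ATP synthesis by complex V. A small set of core subunits of complexes I, III, IV and V is encoded by mitochondrial DNA (mtDNA), so each of these complexes needs products of both genomes, and dedicated assembly factors insert cofactors and join the modules. Keratinocytes in culture also make much of their ATP by glycolysis.

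ATF7, the gene that the vector was made to overexpress, had 50.6, 46.4 and 52.2 CPM in the LV-NC libraries and 21.9, 25.7 and 28 CPM in those labeled LV-ATF7 (CPM, counts scaled to a common library size). All 3 libraries labeled LV-ATF7 were below all 3 LV-NC libraries (log2 fold change -0.98, SE 0.12, adjusted p = 1.89e-04, quasi-likelihood test in edgeR, Benjamini-Hochberg adjusted over all genes tested), which goes against the labels, and 43.9% of ATF7 exon bases also belong to other annotated genes. Directions are therefore given by label throughout. The authors report ATF7 overexpression in HaCaT cells infected with LV-ATF7, measured by qRT-PCR and Western blot. All 16 keratinocyte markers were in the table. At an adjusted p under 0.05, 10 were higher (62.5%, compared with 34.7% of all genes). Another 2, KRT14 and DSC3, were lower (12.5%, compared with 32.9% of all genes). The summed level of the markers was 2322 to 3147 CPM in the LV-NC libraries and 8750 to 9358 CPM in those labeled LV-ATF7. KRT5, a basal keratin, was at 100, 355 and 344 CPM in the LV-NC libraries and 3224, 3215 and 3622 CPM in those labeled LV-ATF7, whereas its partner KRT14 was low at 0.375, 12.5 and 11.3 CPM and 1.45, 1.38 and 1.82 CPM. Summed markers of other cell types were low, at 35.1 to 42.7 against 17.4 to 21.8 CPM for fibroblasts (3 of 10 markers in the table), 17.5 to 24.8 against 12.2 to 13 CPM for melanocytes (2 of 7) and 2.25 to 5.92 against 8.93 to 11.9 CPM for leukocytes (2 of 8). Whether these shifts bear on the OXPHOS genes was not tested.

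One LV-NC library stood apart. Over all genes tested, the mean absolute deviation from the group mean (log2 CPM) was 0.286 in LV-NC replicate 1 and between 0.0809 and 0.174 in the other 5 libraries. LV-NC replicate 1 was the lowest of the 3 LV-NC libraries in 76 of the 104 OXPHOS genes (73.1%), compared with 43.9% of all genes tested. Its log2 level minus the mean of LV-NC replicates 2 and 3 had a median of -0.26 over the OXPHOS genes, of -0.23 over the mtDNA-encoded genes of the pathway and of 0.01 over all genes. Counts of calls by complex and by related list are therefore also given without this library where they differ.

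OXPHOS genes moved in both directions, and a smaller share of them passed the test than of the table as a whole. At an adjusted p under 0.05, 24 of the 104 genes were higher (23.1%) and 20 were lower (19.2%) in the libraries labeled LV-ATF7, compared with 34.7% and 32.9% of all genes tested. In bulk RNA, fewer cells of a kind and less RNA per cell cannot be told apart. In either direction the share was 42.3% of the OXPHOS genes and 67.6% of all genes. With a fold of at least 1.5 as well, 14 were higher (13.5%, compared with 28.2% of all genes) and 11 were lower (10.6%, compared with 24.6%). The groups did not overlap in 62 of the 104 genes (59.6%), compared with 72.7% of all genes. The median log2 fold change was 0.12 over the OXPHOS genes and 0.00 over all genes, and single genes ranged from -1.37 to 1.68. Without LV-NC replicate 1, 30 were higher and 33 were lower, compared with 39.9% and 40.2% of all genes, and 43 of the 44 calls from all 6 libraries were kept. Scaled by library size alone, which shifted the median of all genes by -0.16, 17 OXPHOS genes were higher and 33 lower, so that 34% of the calls were higher in place of 54.5%. Over all genes the same scaling gave 29.1% higher and 39.6% lower, and the higher share of the calls fell from 51.3% to 42.4%.

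**Figure D1:**
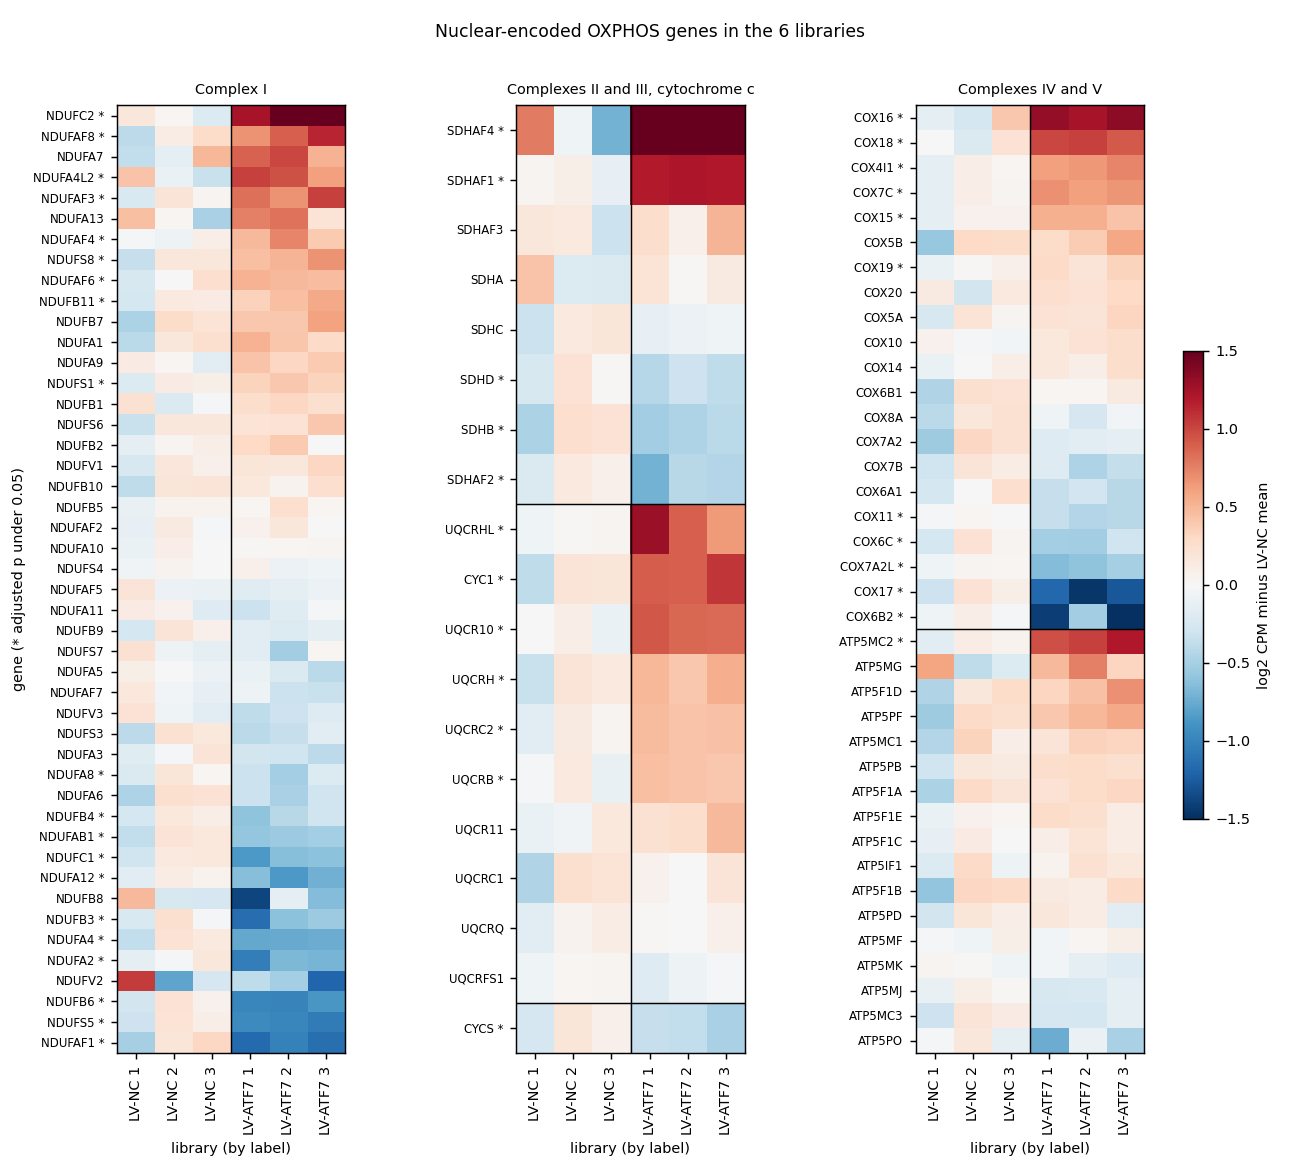
Heat map of 103 of the 104 nuclear-encoded OXPHOS genes in the 6 libraries (columns), colored by log2 CPM minus the mean of the 3 LV-NC libraries, with genes sorted within each complex by fold change. Asterisks mark the 44 genes with an adjusted p under 0.05 (24 higher and 20 lower), and the LV-NC 1 column is mostly blue, that library being the lowest of its group in 76 of all 104 genes.

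**Figure D2:**
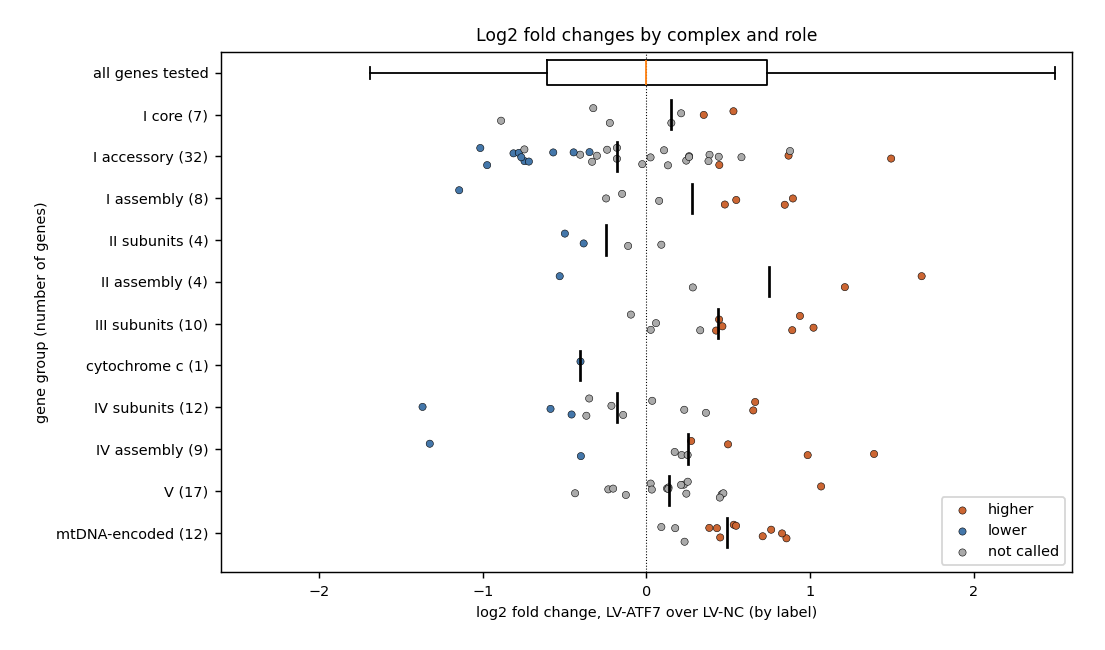
Log2 fold change (LV-ATF7 over LV-NC by label) of each OXPHOS gene, grouped by complex and role, with a black bar at the group median (orange points were called higher, blue points lower and gray points not); the box at the top gives the median, quartiles and whiskers (percentiles 5 and 95) of all 12462 genes tested. Complex III and the mtDNA-encoded genes lie mainly to the right (medians 0.43 and 0.49), whereas the accessory subunits of complex I lie on both sides (18 negative and 14 positive, median -0.18).

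Complex III had the most one-sided pattern among the complexes. Of its 10 genes, 6 were higher (60%, compared with 34.7% of all genes) and none was lower, at a median log2 fold change of 0.43, and the 4 that did not pass the test were UQCR11, UQCRC1, UQCRQ and UQCRFS1. The same 6 higher and 0 lower calls were obtained without LV-NC replicate 1, at a lower median of 0.32. After scaling by library size alone, 4 were higher and 1 was lower. Their summed level was 601, 792 and 770.5 CPM in the LV-NC libraries and 945, 931 and 1002 CPM in those labeled LV-ATF7, so the groups did not overlap.

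CYC1 encodes cytochrome c1, the heme-bearing subunit that hands electrons to cytochrome c. It was measured at 114, 168 and 167 CPM in the LV-NC libraries and 277, 274 and 309 CPM in those labeled LV-ATF7. Every library labeled LV-ATF7 was above every LV-NC library, with a 1.92-fold difference (log2 fold change 0.94, SE 0.16, adjusted p = 0.00102). Against LV-NC replicates 2 and 3 alone the log2 fold change was 0.75. UQCR10, a small subunit, had 4.82, 5.14 and 4.46 CPM in the LV-NC libraries and 9.21, 8.82 and 8.74 CPM in those labeled LV-ATF7, again without overlap and 1.85-fold higher (adjusted p = 8.90e-04).

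UQCRC2, a core protein of the matrix side, was at 139.6, 172 and 162 CPM in the LV-NC libraries and 219, 212 and 214 CPM in those labeled LV-ATF7 (log2 fold change 0.44, SE 0.1, adjusted p = 0.00467). UQCRC1, which pairs with UQCRC2 in the complex, was at 106, 171 and 167 CPM in the LV-NC libraries and 151, 146 and 165 CPM in those labeled LV-ATF7, and the LV-NC libraries spanned the whole range of the other group (adjusted p = 0.784). The Rieske iron-sulfur protein UQCRFS1 likewise overlapped, at 119, 126 and 128 CPM in the LV-NC libraries and 109, 118 and 123 CPM in those labeled LV-ATF7 (log2 fold change -0.09, adjusted p = 0.369). UQCRB and UQCRH were higher by less than CYC1 (log2 fold changes 0.43 and 0.46), and both calls were lost with scaling by library size alone. UQCRHL, an intronless near-identical copy of UQCRH with at most 3.46 CPM in any library, had a log2 fold change of 1.02, and reads of the copy and its parent may have been split between them.

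Cytochrome c itself went the other way from CYC1. CYCS encodes the mobile carrier between complexes III and IV, which also triggers apoptosis when released from mitochondria, and it had 169, 228 and 213 CPM in the LV-NC libraries and 159, 157 and 144 CPM in those labeled LV-ATF7. All libraries labeled LV-ATF7 were below all LV-NC libraries, although LV-NC replicate 1 lay within 10 CPM of the highest of them (log2 fold change -0.41, SE 0.12, adjusted p = 0.0187). The call was lost when LV-ATF7 replicate 2 or 3 was left out, whereas the log2 fold change was -0.54 without LV-NC replicate 1. The annotation holds 40 pseudogenes named after CYCS, whose reads may not be separable from it.

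**Figure D3:**
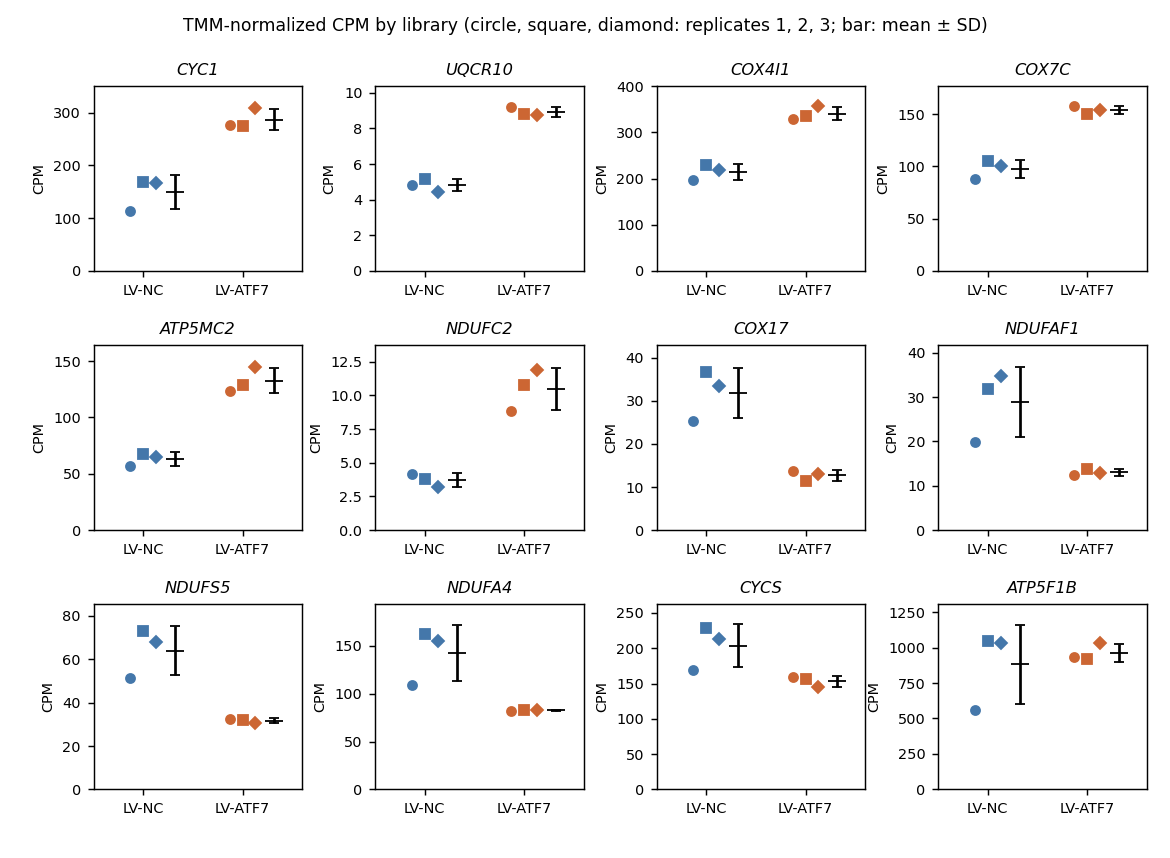
TMM-normalized CPM of 12 OXPHOS genes in each library (circles, squares and diamonds for replicates 1, 2 and 3), with the mean and SD of each group as a black bar beside the points. CYC1, UQCR10, COX4I1, COX7C, ATP5MC2 and NDUFC2 were higher in all 3 libraries labeled LV-ATF7, COX17, NDUFAF1, NDUFS5, NDUFA4 and CYCS were lower in all 3, and ATP5F1B overlapped with LV-NC replicate 1 far below replicates 2 and 3.

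Complex I, the largest complex, had calls in both directions, with 9 of 47 genes higher and 11 lower (19.1% and 23.4%, compared with 34.7% and 32.9% of all genes). Its 7 core subunits had 2 higher and 0 lower, its 32 accessory subunits had 3 higher (9.38%) and 10 lower (31.2%), and its 8 assembly factors had 4 higher and 1 lower. The medians were 0.15, -0.18 and 0.28, in that order. When LV-NC replicate 1 was left out, the core subunits had 2 higher and 1 lower at a median of -0.02, the accessory subunits 7 and 14 at -0.17, and the assembly factors 4 and 1 at 0.17. The difference between roles was not tested. The complex had 4 higher genes without LV-ATF7 replicate 2, and 5 higher and 18 lower with scaling by library size alone.

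NDUFS5, an accessory subunit of the membrane arm, had 51.2, 72.9 and 68 CPM in the LV-NC libraries and 32.6, 32 and 30.5 CPM in those labeled LV-ATF7. It was 2.02-fold lower, with no overlap between the groups (log2 fold change -1.02, SE 0.14, adjusted p = 3.57e-04), and 6 pseudogenes carry its name. NDUFB6, another accessory subunit of the membrane arm, had 25.3, 35.8 and 32.1 CPM in the LV-NC libraries and 15.5, 15.2 and 16.7 CPM in those labeled LV-ATF7, a 1.96-fold lower level (adjusted p = 6.25e-04). Further genes grouped by prefix with the accessory subunits were lower by at least 1.5-fold. These were NDUFA2, NDUFA4, NDUFA12, NDUFB3 and NDUFC1, with log2 fold changes between -0.81 and -0.72. NDUFAB1, the mitochondrial acyl carrier protein that also serves fatty acid synthesis, was lower as well (log2 fold change -0.57, adjusted p = 0.0109).

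The largest rise among the accessory subunits was that of NDUFC2, a small membrane subunit. It had 4.18, 3.77 and 3.18 CPM in the LV-NC libraries and 8.82, 10.8 and 11.9 CPM in those labeled LV-ATF7, which did not overlap and was 2.82-fold higher (log2 fold change 1.5, SE 0.19, adjusted p = 2.05e-04). These are low levels, and 18.1% of NDUFC2 exon bases are shared with other annotated genes. NDUFB11, encoded on the X chromosome, was higher too (log2 fold change 0.45, adjusted p = 0.0164), a call lost in 3 of the alternatives, but 44.9% of its exon bases overlap a gene on the opposite strand and the strandedness of the counts is not given in the sources used here.

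NDUFA4 and NDUFA4L2 form a pair of related genes. NDUFA4 was named for complex I but is found in complex IV, and NDUFA4L2 is a relative known to be induced by hypoxia-inducible factor. By prefix, both are counted here with the accessory subunits of complex I and not with complex IV. NDUFA4 had 109, 163 and 155 CPM in the LV-NC libraries and 82.3, 82.9 and 83.2 CPM in those labeled LV-ATF7 and was lower in the latter group, where its 3 libraries differed by under 1 CPM (log2 fold change -0.78, SE 0.15, adjusted p = 0.00214). NDUFA4L2 had only 2.62, 1.78 and 1.51 CPM in the LV-NC libraries and 4.02, 3.82 and 2.99 CPM in those labeled LV-ATF7, and it was higher (log2 fold change 0.87, adjusted p = 0.0189), a call that was lost in 5 of the 13 alternatives, among them scaling by library size alone. Per kilobase of exon, the level of NDUFA4 over that of NDUFA4L2 was 32.7, 72 and 81.4 in the LV-NC libraries and 16.2, 17.1 and 22 in the libraries labeled LV-ATF7, so NDUFA4 remained the more abundant in every library. HIF1A, which encodes a hypoxia-inducible factor subunit, had 95.7, 106 and 104 CPM in the LV-NC libraries and 207, 181 and 153 CPM in those labeled LV-ATF7 (log2 fold change 0.82, adjusted p = 5.48e-04). Whether HIF1A bears on NDUFA4L2 or NDUFA4 was not tested, and RNA does not give the level of the HIF1A protein.

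Most, but not all, of the nuclear-encoded core subunits carry the flavin or iron-sulfur clusters. Among the core subunits, NDUFS8 had 57.2, 81.9 and 81.4 CPM in the LV-NC libraries and 99.2, 103 and 116 CPM in those labeled LV-ATF7. It was 1.45-fold higher (log2 fold change 0.53, SE 0.15, adjusted p = 0.0141). NDUFS1 was at 63.1, 79.6 and 77.3 CPM in the LV-NC libraries and 92.2, 96.4 and 91.9 CPM in those labeled LV-ATF7 (log2 fold change 0.35, adjusted p = 0.0216). In both genes the libraries labeled LV-ATF7 were above all LV-NC libraries, but the call of NDUFS8 was lost without LV-ATF7 replicate 3, and that of NDUFS1 in 4 of the alternatives. NDUFV1, which binds NADH and the flavin, did not pass the test at 162, 216 and 203 CPM in the LV-NC libraries and 218, 217 and 238 CPM in those labeled LV-ATF7 (adjusted p = 0.151). NDUFS3 overlapped between the groups (log2 fold change -0.32), but was called lower without LV-NC replicate 1 (-0.52, adjusted p = 5.27e-06). NDUFV2 and NDUFS7 did not pass the test, at 1.77 to 8.73 CPM and 1.58 to 2.73 CPM over all libraries, with 28.4% and 49.1% of their exon bases shared with other genes.

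The complex I assembly factors diverged from each other. NDUFAF1, part of the mitochondrial complex I intermediate assembly (MCIA) complex, had 19.9, 31.9 and 34.7 CPM in the LV-NC libraries and 12.4, 13.9 and 12.8 CPM in those labeled LV-ATF7. It was 2.21-fold lower without overlap (log2 fold change -1.14, SE 0.21, adjusted p = 0.00157). By contrast, NDUFAF8, which acts in the assembly of the peripheral arm, had 11, 15.7 and 17.5 CPM in the LV-NC libraries and 23.3, 27.1 and 32 CPM in those labeled LV-ATF7 and was 1.86-fold higher (adjusted p = 0.00436). NDUFAF3, NDUFAF4 and NDUFAF6 were also higher (log2 fold changes 0.85, 0.55 and 0.48), and 21.6% of the exon bases of NDUFAF3 overlap a gene on the other strand. The call of NDUFAF6 was lost in 5 of the 13 alternatives, among them scaling by library size alone. NDUFAF2, NDUFAF5 and NDUFAF7 did not pass the test. Of the factors outside the rule that are tied to the MCIA complex, ACAD9, which doubles as an acyl-CoA dehydrogenase, had 32, 30.5 and 29.9 CPM in the LV-NC libraries and 61.1, 62.6 and 58.8 CPM in those labeled LV-ATF7 (log2 fold change 0.98, adjusted p = 3.97e-05). TMEM186, ECSIT and TMEM126B were also higher (log2 fold changes 1.07, 0.69 and 0.66), TMEM126A, a relative of TMEM126B, was lower (-0.7), and COA1 and TIMMDC1 were not called (0.1 and 0.11).

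Complex II is the one complex without an mtDNA-encoded subunit, and it also acts in the citric acid cycle. Of its 8 genes, 2 were higher and 3 were lower (62.5% called, compared with 67.6% of all genes). These counts were 2 and 4 without LV-NC replicate 1, and without LV-ATF7 replicate 1 none was lower. SDHB, its iron-sulfur subunit, had 46.5, 77.2 and 75.3 CPM in the LV-NC libraries and 45, 46.8 and 48.9 CPM in those labeled LV-ATF7. The second group was lower on average (log2 fold change -0.5, SE 0.19, adjusted p = 0.0425), but LV-NC replicate 1 lay among its libraries, and the call was lost when any 1 of the other 5 libraries was left out. Without LV-NC replicate 1 the log2 fold change was -0.72 (adjusted p = 1.51e-08). The membrane anchor SDHD was lower without overlap (log2 fold change -0.38, adjusted p = 0.0282), a call lost in 4 of the 13 alternatives. SDHC was not called (log2 fold change -0.11, adjusted p = 0.501), but it was lower without LV-NC replicate 1 (-0.28, adjusted p = 0.00214). SDHA, the flavoprotein, was at only 2.72 to 4.28 CPM in any library, its groups overlapped, and the annotation holds 3 pseudogenes named after it.

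Among the assembly factors of complex II, SDHAF1, which helps to mature the iron-sulfur clusters of SDHB, had 7.01, 7.23 and 6.25 CPM in the LV-NC libraries and 15.7, 16 and 15.9 CPM in those labeled LV-ATF7. Its replicates differed by under 1 CPM in each group, and it was 2.32-fold higher (log2 fold change 1.21, SE 0.13, adjusted p = 9.94e-05). SDHAF4, an assembly factor for the flavoprotein, was also higher but at no more than 3.32 CPM in any library (log2 fold change 1.68, SE 0.38). SDHAF2, which attaches the flavin to SDHA, was lower (log2 fold change -0.53, adjusted p = 0.0182). Its call was kept in 12 of the 13 alternatives, and 30.5% of its exon bases are shared with other annotated genes.

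In complex IV, 6 of 21 genes were higher and 5 were lower (28.6% and 23.8%, compared with 34.7% and 32.9% of all genes). The groups did not overlap in 15 of the 21, among them all 9 assembly factors, compared with 72.7% of all genes. The 12 structural subunits had 2 higher and 3 lower at a median of -0.18, and the 9 assembly and cofactor delivery genes had 4 higher and 2 lower at a median of 0.25. Without LV-NC replicate 1 the structural subunits had 2 higher and 8 lower at a median of -0.40. The assembly genes again had 4 higher and 2 lower, at a median of 0.23, but COX19 lost its call and COX10 gained one. The call of COX19 was kept in only 3 of the 13 alternatives.

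COX4I1, the ubiquitous form of the regulatory subunit that joins the complex early, had 196, 230.0 and 219 CPM in the LV-NC libraries and 329, 336 and 356 CPM in those labeled LV-ATF7. It was 1.59-fold higher (log2 fold change 0.66, SE 0.1, adjusted p = 4.55e-04), and its tissue-restricted isoform COX4I2 was not in the count table. COX7C, a small subunit, had 88.1, 105 and 101 CPM in the LV-NC libraries and 158, 150.2 and 154 CPM in those labeled LV-ATF7 and was 1.57-fold higher (adjusted p = 4.87e-04). In both genes the lowest library labeled LV-ATF7 was well above the highest LV-NC library.

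COX7A2L, known as a factor that joins complexes III and IV into supercomplexes, had 111, 119.9 and 119 CPM in the LV-NC libraries and 74.4, 76.5 and 82.5 CPM in those labeled LV-ATF7. It was 1.5-fold lower without overlap (log2 fold change -0.59, SE 0.09, adjusted p = 5.81e-04). COX7A2, the conventional subunit of the same family, overlapped at 44.5, 79.6 and 75.4 CPM in the LV-NC libraries and 56.3, 57.7 and 58.1 CPM in those labeled LV-ATF7 (log2 fold change -0.21, adjusted p = 0.371). LV-NC replicates 2 and 3 were above all libraries labeled LV-ATF7, and without LV-NC replicate 1 COX7A2 was called lower as well (-0.46, adjusted p = 1.42e-05). Of the other isoform sets, COX6A1, COX6B1, COX7B and COX8A were not called (log2 fold changes -0.37, 0.04, -0.35 and -0.14). All 4 were called lower without LV-NC replicate 1 (log2 fold changes -0.51, -0.18, -0.51 and -0.34, adjusted p = 0.0037, 0.0488, 1.78e-05 and 0.0126). The isoforms COX6A2, COX7A1, COX7B2 and COX8C were not in the count table. COX6B2, the testis form of COX6B1, was called lower from at most 1.15 CPM in any library (log2 fold change -1.37, SE 0.46), and the call was lost in 4 of the alternatives. COX6C was lower (log2 fold change -0.46, adjusted p = 0.0206), and 17 pseudogenes carry its name.

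Copper and heme delivery to complex IV also split. COX17, the copper chaperone that feeds SCO1 and COX11, had 25.2, 36.6 and 33.5 CPM in the LV-NC libraries and 13.8, 11.3 and 13 CPM in those labeled LV-ATF7. At 2.5-fold, it was the largest fall of the OXPHOS genes that averaged 50 counts or more (log2 fold change -1.32, SE 0.17, adjusted p = 2.26e-04), and 17.6% of its exon bases are shared with another gene. COX11, which delivers copper to the CuB center, was lower by less (log2 fold change -0.4, adjusted p = 0.00365). SCO1, which serves the CuA center, was higher, at 87.2, 74.5 and 72.5 CPM in the LV-NC libraries and 111, 118 and 112 CPM in those labeled LV-ATF7 (log2 fold change 0.54, adjusted p = 0.00172). COX18, an insertase for COX2, had 6.26, 5.35 and 7.24 CPM in the LV-NC libraries and 12.6, 12.8 and 11.9 CPM in those labeled LV-ATF7 and was 1.98-fold higher (log2 fold change 0.99, SE 0.16, adjusted p = 7.78e-04). COX15, which makes heme A, was higher (log2 fold change 0.5, adjusted p = 0.00282), and 25.6% of its exon bases are shared with other annotated genes. COX10, which acts just before COX15, was called only in 2 of the alternatives (log2 fold change 0.22, adjusted p = 0.061).

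Complex V was the complex with the fewest calls. Of its 17 genes only ATP5MC2 passed the test with all 6 libraries (5.88%, compared with 67.6% of all genes), and the median log2 fold change was 0.13. That median was 0.011 without LV-NC replicate 1 and -0.027 with scaling by library size alone. ATP5MC2 is 1 of 3 genes that encode the same mature c subunit, the proton-carrying ring of the enzyme. It had 56.6, 67.8 and 65.1 CPM in the LV-NC libraries and 124, 129 and 145 CPM in those labeled LV-ATF7, a 2.1-fold higher level with no overlap (log2 fold change 1.07, SE 0.11, adjusted p = 7.47e-05).

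The other c subunit genes did not pass the test, with ATP5MC1 at 24.8, 42.6 and 36.2 CPM in the LV-NC libraries and 38.4, 42.8 and 42.2 CPM in those labeled LV-ATF7 and ATP5MC3 at 89.8, 127 and 121 CPM in the LV-NC libraries and 93.8, 93.2 and 101 CPM in those labeled LV-ATF7 (log2 fold changes 0.25 and -0.23). ATP5MC2 thus made up 33.1, 28.5 and 29.3% of the CPM of the c subunit genes in the LV-NC libraries and 48.3, 48.6 and 50.3% in the libraries labeled LV-ATF7 (30.3 ± 2.43% and 49.1 ± 1.08%, SD, n = 3). This share was taken within each library and did not depend on scaling between libraries. The summed level of the c subunit genes was 171, 238 and 222 CPM in LV-NC and 256, 265 and 288 CPM in LV-ATF7.

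The catalytic beta subunit ATP5F1B had 563, 1049.8 and 1032 CPM in the LV-NC libraries and 932, 917 and 1036 CPM in those labeled LV-ATF7. It showed the gap of LV-NC replicate 1 plainly, since that library was far below the others of its group while these lay in or just above the range of the libraries labeled LV-ATF7 (log2 fold change 0.13, SE 0.22, adjusted p = 0.636). The alpha subunit ATP5F1A also had its lowest level in LV-NC replicate 1 and overlapped between the groups, at 311, 531 and 494 CPM in the LV-NC libraries and 505, 524 and 537 CPM in those labeled LV-ATF7 (adjusted p = 0.305). Relative to exon length, ATP5F1B was at 379.6 CPM per kilobase in the LV-NC group and 414 in the LV-ATF7 group, compared with 40.8 and 47.9 for ATP5F1A. Much of this difference comes from the divisor, which joins the exons of all annotated transcripts (2322 bases for ATP5F1B and 10908 for ATP5F1A). Without it, the LV-NC means were 881 and 445 CPM. ATP5IF1, the inhibitor of ATP hydrolysis by the complex, was not called (log2 fold change 0.13, adjusted p = 0.496). Without LV-NC replicate 1 complex V had 3 higher and 2 lower, where ATP5F1D and ATP5MG joined ATP5MC2 and where ATP5MC3 and ATP5MJ were lower.

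**Figure D4:**
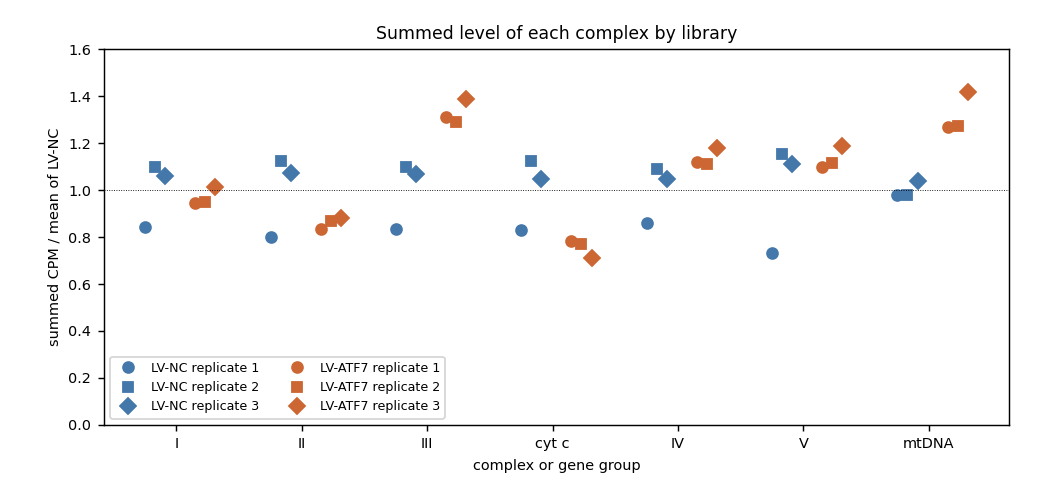
Summed CPM of the genes of each complex in each library, divided by the mean of the 3 LV-NC libraries (dotted line at 1). Complex III and the mtDNA-encoded genes lie above every LV-NC library in all 3 libraries labeled LV-ATF7, CYCS (cyt c) lies below, and LV-NC replicate 1 is the lowest LV-NC library in all nuclear-encoded groups.

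The summed level of all 104 genes did not separate the groups, at 4865, 6753 and 6502 CPM in the LV-NC libraries and 6412, 6436 and 6826 CPM in those labeled LV-ATF7. Only LV-NC replicate 1 fell clearly below the rest. Complex V summed to 1505, 2373 and 2284 CPM in LV-NC and to 2261, 2293 and 2439 CPM in LV-ATF7, and complex I to 1514, 1973 and 1901 CPM and to 1697, 1705 and 1817 CPM, so both overlapped. Complex IV, at 891, 1126 and 1085 CPM in LV-NC and 1157, 1149.5 and 1219 CPM in LV-ATF7, separated by a small gap. This sum leaves out NDUFA4, which is found in complex IV but was counted by prefix with complex I. With NDUFA4 added, LV-NC replicate 2 would lie above LV-ATF7 replicates 1 and 2, so the groups would overlap. They would also overlap with scaling by library size alone.

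**Figure D5:**
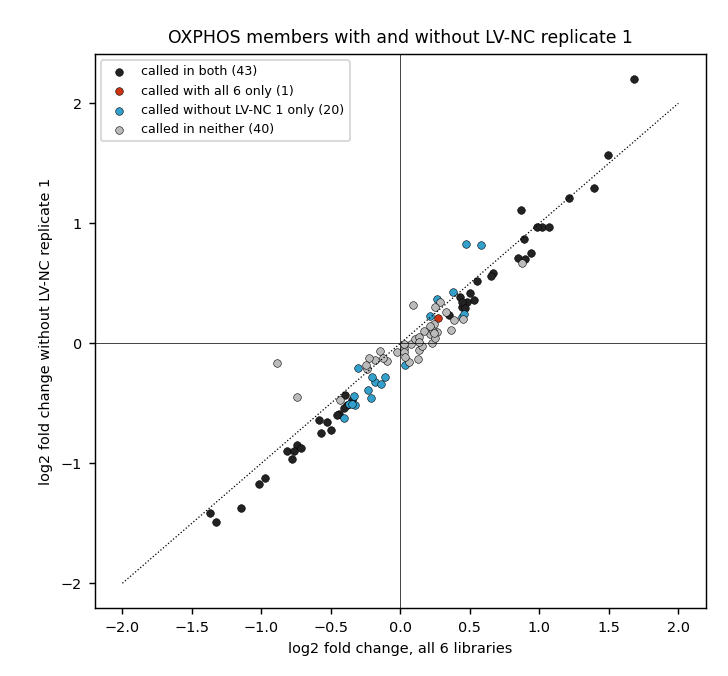
Log2 fold change of each of the 104 OXPHOS genes from all 6 libraries (x axis) and without LV-NC replicate 1 (y axis), with the dotted line of equality. Of the genes, 43 were called in both, 1 with all 6 libraries alone, 20 without LV-NC replicate 1 alone and 40 in neither, and most points lie below the line.

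Genes outside the symbol rule that belong to the same pathway were read from the same fit. Of the mtDNA-encoded subunits, 12 were in the table. These genes are transcribed together as long precursors from both strands of mtDNA. All 12 had positive log2 fold changes, with a median of 0.49, and 9 were higher (75%, compared with 34.7% of all genes) and none was lower. Their summed level was 33138, 33237 and 35242 CPM in the LV-NC libraries and 42947, 43132 and 47976 CPM in those labeled LV-ATF7, without overlap. MT-ND1, a core subunit of complex I, had 1051, 1333 and 1372 CPM in the LV-NC libraries and 2116, 2236 and 2447 CPM in those labeled LV-ATF7 (log2 fold change 0.86, SE 0.14, adjusted p = 7.33e-04). MT-ND3, also of complex I, was higher by a similar amount (log2 fold change 0.83, adjusted p = 0.00995). MT-ND4, MT-CO1 and MT-ND4L did not pass the test (log2 fold changes 0.09, 0.18 and 0.23). Without LV-NC replicate 1, 10 were higher (compared with 39.9% of all genes) and none was lower, at a median of 0.38. After scaling by library size alone 8 were higher and none was lower. Since the libraries were poly(A)-selected, these values reflect the polyadenylated part of the mitochondrial transcripts.

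Assembly factors named outside the rule numbered 38 in the table, with 16 higher and 8 lower (63.2% called, compared with 67.6% of all genes) at a median of 0.09. The lower count was 14 without LV-NC replicate 1 and 4 or 5 without any 1 of the other libraries. The largest rises were in UQCC2 and UQCC3, which act on the synthesis and assembly of mtDNA-encoded cytochrome b in complex III. UQCC2 had 8.41, 8.86 and 8.86 CPM in the LV-NC libraries and 33.7, 37.3 and 36.9 CPM in those labeled LV-ATF7 (log2 fold change 2.05, SE 0.11, adjusted p = 4.42e-06), and UQCC3 had 1.23, 1.05 and 1.1 CPM in the LV-NC libraries and 5.02, 5.51 and 3.87 CPM in those labeled LV-ATF7 (log2 fold change 2.09, adjusted p = 1.11e-04). Their partner UQCC1 was higher too, at 35.7, 38.5 and 39.8 CPM in the LV-NC libraries and 77.7, 68.7 and 79 CPM in those labeled LV-ATF7 (log2 fold change 0.98, adjusted p = 7.26e-05). The largest falls were in CMC2, linked to complex IV assembly, and in TMEM70, which helps to build the c ring of complex V (log2 fold changes -1.07 and -0.75). Across the 21 assembly factors within the rule, 10 were higher and 4 were lower (66.7% called, close to the 67.6% of all genes), compared with 30 of the 83 remaining genes (36.1%).

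Of 21 regulators of mitochondrial gene expression, 9 were higher and 6 were lower (71.4% called, compared with 67.6% of all genes). Without LV-NC replicate 1 these counts were 9 and 7, compared with 39.9% and 40.2% of all genes. PPARGC1B, a coactivator of the PGC-1 family that drives mitochondrial gene programs, had 4.5, 4.04 and 5.9 CPM in the LV-NC libraries and 45.2, 46.1 and 42.9 CPM in those labeled LV-ATF7 (log2 fold change 3.22, SE 0.16, adjusted p = 2.77e-06). Its relatives PPRC1 and PPARGC1A were also higher (log2 fold changes 1.86 and 1.62), as was their nuclear receptor partner ESRRA (1.06). MYC, which promotes mitochondrial biogenesis, had 209.6, 153 and 153 CPM in the LV-NC libraries and 792, 795 and 810.4 CPM in those labeled LV-ATF7 (log2 fold change 2.22, adjusted p = 8.27e-06). The groups did not overlap in any of these genes.

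Not all DNA-binding factors of the list went the way of ESRRA and MYC. Whether any regulator of the list bears on the OXPHOS genes was not tested. NRF1 (nuclear respiratory factor 1) had 36, 29 and 28.5 CPM in the LV-NC libraries and 23.8, 26.5 and 27.5 CPM in those labeled LV-ATF7 (log2 fold change -0.27, adjusted p = 0.102). GABPA, the DNA-binding subunit of the ETS-type factor NRF2/GABP, had 50.6, 50.4 and 51 CPM in the LV-NC libraries and 25.9, 22.4 and 21.8 CPM in those labeled LV-ATF7 and was 2.17-fold lower (log2 fold change -1.12, SE 0.1, adjusted p = 4.69e-05), and its partner GABPB1 was lower as well (log2 fold change -0.72). YY1 and TFAM, the latter the packaging and transcription factor of mtDNA, did not pass the test (log2 fold changes 0.07 and 0.18). For mtDNA itself, the polymerase gene POLG was lower at 179, 219 and 239.7 CPM in the LV-NC libraries and 75.3, 74.4 and 82 CPM in those labeled LV-ATF7 (log2 fold change -1.46), whereas the helicase gene TWNK was higher (1.21) and so was the mitochondrial RNA polymerase gene POLRMT (0.66).

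Promoters of OXPHOS genes are known for sites of NRF1, GABP and YY1, and ATF7 belongs to the ATF/CREB factors, which bind the cAMP response element (CRE). RefSeq windows (GRCh38.p14) from 250 bases before to 50 bases after the start site were found for 86 of the 104 genes. The letters searched on both strands were GCGCANGCG for NRF1, CCGGAAG for ETS factors such as GABPA, GATGGCGG for YY1 and TGACGTCA for the CRE, and none of these contains another. The NRF1 letters stood in 26.7% of the OXPHOS windows, 13.8% of those of genes tested and 7.68% of all windows. For the ETS letters these shares were 30.2, 18.7 and 10.5%, for the YY1 letters 15.1, 4.67 and 2.4%, and for the CRE 4.65, 3.16 and 1.92%. A match is a description of the sequence and not evidence of binding.

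The same letters stood before genes that moved in opposite directions. The NRF1 letters were found in 3 of 18 windows of higher genes, 5 of 16 of lower genes and 15 of 52 of genes not called, and the ETS letters in 5, 4 and 17. The CRE was found in 4 windows, those of NDUFA10, NDUFB2, SDHB and ATP5MC1, of which only SDHB was called. Windows are shown for UQCR10 (higher, chr22:29767119-29767418, plus strand) and NDUFA12 (lower, chr12:95003648-95003947, minus strand), which share the NRF1 letters, and for COX4I1 (higher, chr16:85799445-85799744, plus strand) and SDHB (lower, chr1:17053983-17054282, minus strand), which share the ETS letters. Each runs 5′ to 3′ in the direction of its gene, with matches in capitals. In SDHB the capitals mark, in order, the ETS letters, the CRE and the YY1 letters.
UQCR10: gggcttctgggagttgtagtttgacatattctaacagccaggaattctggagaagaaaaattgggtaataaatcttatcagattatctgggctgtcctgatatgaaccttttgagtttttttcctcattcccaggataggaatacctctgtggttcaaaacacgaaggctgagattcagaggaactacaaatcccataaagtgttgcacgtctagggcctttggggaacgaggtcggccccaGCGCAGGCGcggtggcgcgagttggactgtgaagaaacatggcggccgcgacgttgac
NDUFA12: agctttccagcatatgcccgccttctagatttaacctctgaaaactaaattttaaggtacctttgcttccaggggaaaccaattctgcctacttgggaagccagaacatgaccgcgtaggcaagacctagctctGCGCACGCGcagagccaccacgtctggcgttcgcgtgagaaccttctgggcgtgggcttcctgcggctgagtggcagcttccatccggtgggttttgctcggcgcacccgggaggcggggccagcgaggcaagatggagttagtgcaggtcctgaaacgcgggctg
COX4I1: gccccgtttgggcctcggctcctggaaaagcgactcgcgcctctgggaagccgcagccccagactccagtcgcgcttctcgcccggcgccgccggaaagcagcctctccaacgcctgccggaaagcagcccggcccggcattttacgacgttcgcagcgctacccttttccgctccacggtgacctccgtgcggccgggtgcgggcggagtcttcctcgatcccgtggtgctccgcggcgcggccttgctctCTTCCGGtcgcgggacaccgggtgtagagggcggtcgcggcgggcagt
SDHB: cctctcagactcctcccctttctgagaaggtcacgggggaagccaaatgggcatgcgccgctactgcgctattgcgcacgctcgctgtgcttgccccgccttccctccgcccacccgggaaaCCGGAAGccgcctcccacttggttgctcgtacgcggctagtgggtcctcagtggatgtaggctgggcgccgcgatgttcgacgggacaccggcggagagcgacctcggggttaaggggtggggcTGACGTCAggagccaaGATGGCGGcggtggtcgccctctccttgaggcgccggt
UQCR10 and COX4I1 were 1.85-fold and 1.59-fold higher, whereas NDUFA12 was at 43.4, 52.9 and 50.7 CPM in the LV-NC libraries and 31.4, 26.8 and 29.5 CPM in those labeled LV-ATF7 (1.68-fold lower, adjusted p = 7.04e-04). In COX4I1 the capitals read as the reverse complement of the ETS letters.

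The positions of the genes described in most detail are as follows in GENCODE 29 (GRCh38). ATP5MC2 (ENSG00000135390) spans chr12:53632726-53677408 on the minus strand, COX17 (ENSG00000138495) spans chr3:119654513-119677454 on the minus strand, and COX4I1 (ENSG00000131143) spans chr16:85798633-85807044 on the plus strand. NDUFC2 (ENSG00000151366) spans chr11:78068304-78080219 on the minus strand, and CYCS (ENSG00000172115) spans chr7:25120091-25125361 on the minus strand.

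The counting of short genes with relatives set a limit that differed between members. Of the 104 genes, 39 share over 10% of their exon bases with other annotated genes, and 19 of these were under 15 CPM in both groups, compared with 11 of the 65 that share less. Another gene stands on the opposite strand over more than 10% of the exon bases in 17 genes, and 51 have at least 1 pseudogene of the same name. In 14 genes both group means were under 5 CPM, and 10 were above 100 CPM in both groups.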

How the data were processed

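Poly(A)-selected RNA of HaCaT cells was sequenced on an Illumina instrument by the authors, who deposited 1 table of raw read counts per gene for the 6 libraries. The submitters' processing notes name GRCh38, and the aligner, the counting tool and the strand setting are not given in the sources used here. FPKM columns in the same table, which the authors had scaled by gene length and depth before they were deposited, entered no test. The table also holds the authors' own fold changes and p-values, which were not used. Counts of all 12499 genes were filtered with filterByExpr, which left 12462, scaled by TMM and tested in edgeR 4.0.16 (R 4.3.3) with the quasi-likelihood test over 3 libraries per group, and p-values were adjusted by Benjamini-Hochberg over all genes tested. A gene was called at an adjusted p under 0.05. CPM are counts scaled to TMM-adjusted library sizes, and the SE is the log2 fold change divided by the root of the F statistic. The code of the model was run on simulated counts in which few genes changed and no library stood apart. That run therefore cannot tell whether the scaling or the error rate holds in these data.

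Genes were named by a rule: per complex the 3 largest rises and falls with a fold of at least 1.5 and a mean of at least 50 counts, isoform sets, core subunits and, in the related lists, the 2 largest rises and falls. Of the genes the rule names, 1 is not reported here, though it stays in every fit and count. Other genes named were chosen after their values were seen. The OXPHOS genes, the related lists and the marker lists were chosen with earlier results of these data known. Exon lengths (exons of all annotated transcripts of a gene joined), overlaps and pseudogene names came from GENCODE 29. Alternatives were DESeq2 1.42.0, voom with sample quality weights (limma 3.58.1), other scalings and filters, a replicate block and leaving out each library, 13 in all.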

Additional observations from a re-analysis of the deposited data

How the results depend on the processing

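Over the 13 alternatives, 27 of the 44 called OXPHOS genes kept their call in every one, and 31 of the 60 genes not called were called in at least 1. The count of lower genes rose from 20 to 33 with scaling by library size alone and to 35 with voom quality weights, while the lower share of all genes went from 32.9% to 39.6% and 41.1%. The count lay between 13 (without LV-ATF7 replicate 1) and 33 (without LV-NC replicate 1) when 1 library was left out. The count of higher genes was 17 to 36 over all alternatives and 18 to 30 with 1 library left out. With a fold of at least 1.5, lower genes numbered 9 to 17 with 1 library left out (17 without LV-NC replicate 1) and higher genes 13 to 15. The median log2 fold change of 0.12 became -0.042 with library size alone, and it lay between -0.0039 (without LV-NC replicate 1) and 0.138 with 1 library left out.

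Signs turned in 15 OXPHOS genes, none of them called with all 6 libraries, and of these COX6B1 was called lower with voom weights and without LV-NC replicate 1, and UQCRC1 with voom weights. Among those named by the rule, with library size alone, which moved the median of all genes by -0.16, COX6B1 was -0.12, ATP5F1B -0.030 and SDHA -0.079, and with voom weights the first 2 of these were -0.17 and -0.14. With 1 library left out COX6B1 ranged from -0.18 to 0.12 and ATP5F1B from -0.13 to 0.24, both lowest without LV-NC replicate 1, whereas SDHA ranged from -0.061 (without LV-NC replicate 3) to 0.32. The causes were not tested. Complex III had 6 higher and 2 lower with voom weights, and complex V had 5 higher and 2 lower.

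The sample titles give both groups the numbers 1 to 3, but the library name of LV-NC replicate 3 carries another number. Deviations from the group means of libraries with the same title number correlated at only 0.058, -0.021 and 0.065 over all genes. The numbers were therefore not taken as pairs. With the replicate block 25 OXPHOS genes were higher and 19 lower, compared with 24 and 20 without it. At this depth genes of a few CPM, such as SDHA, COX6B2 and NDUFV2, rest on few reads.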

Other observations

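The citric acid cycle and pyruvate entry, which supply NADH and succinate to complexes I and II, were also mixed. Of 25 genes in the table, 6 were higher and 7 were lower (24% and 28%, compared with 34.7% and 32.9% of all genes) at a median log2 fold change of -0.08. Both subunits of the mitochondrial pyruvate carrier were lower, MPC1 at 38.7, 51.1 and 47.2 CPM in the LV-NC libraries and 17.6, 17.4 and 12.7 CPM in those labeled LV-ATF7 (log2 fold change -1.52, SE 0.17, adjusted p = 1.09e-04) and MPC2 at 26.3, 36.2 and 27.6 CPM in the LV-NC libraries and 11.1, 14.5 and 11.3 CPM in those labeled LV-ATF7 (log2 fold change -1.29, adjusted p = 3.36e-04). IDH2, the NADP-dependent isocitrate dehydrogenase of mitochondria, was lower at 26.2, 44.8 and 43.2 CPM in the LV-NC libraries and 16.2, 18 and 16.8 CPM in those labeled LV-ATF7 (log2 fold change -1.16, adjusted p = 0.00128). CS, which encodes citrate synthase, was lower by less (log2 fold change -0.44, adjusted p = 0.00296). SUCLG2, the GTP-forming subunit of succinyl-CoA ligase, was higher at 7.5, 7.6 and 7.24 CPM in the LV-NC libraries and 28.2, 25.8 and 24.4 CPM in those labeled LV-ATF7 (log2 fold change 1.81, SE 0.13, adjusted p = 1.11e-05), whereas SUCLA2, the ATP-forming subunit, was not called (log2 fold change -0.2, adjusted p = 0.147). PDK2, a kinase that inactivates pyruvate dehydrogenase, was higher (log2 fold change 1.6, adjusted p = 3.70e-04), and so was PDP1, a phosphatase that reverses this step (log2 fold change 1, adjusted p = 2.40e-04). The groups did not overlap in any of the called genes named here. Without LV-NC replicate 1 the same list had 6 higher and 11 lower, compared with 39.9% and 40.2% of all genes.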
